A study of Mus musculus with 65 samples.

Results

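The aim was to describe what sets young adult skin apart from other tissues. Ventral skin (5 arrays) was compared with tibia bone (5), skeletal muscle (5), thymus (5) and white adipose tissue (3), all at 4 months. These 23 arrays were taken from 65 by their labels. All mice were wild-type C57BL/6J males without treatment, and the RNA of 1 tissue sample was hybridized to each Affymetrix Mouse Exon 1.0 ST array. The arrays came from 14 mice, and all 5 skin arrays came from mice that also gave at least 1 of the other tissues. All 5 bone arrays came from mice that gave no skin, and 7 of the 14 mice gave more than 1 array. White adipose replicates 4 and 5 were left out because they carried transcripts of the epididymis. Their mean log2 value over 13 epididymis genes was 7.12 and 6.46, against at most 3.19 on any of the 23 arrays. Among the 3 adipose arrays kept, replicate 1 stood apart for lymphocyte genes, with a mean of 5.69 over 11 thymocyte genes, against 3.55 and 3.46 on replicates 2 and 3. Whole tissue was sampled, so each value is a mixture of the cell types present. The pieces of skin hold epidermis, hair follicles, sebaceous glands, dermis and what lay beneath. A difference between tissues cannot tell fewer cells of a type from less RNA per cell.

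The epidermis is a layered epithelium. Basal keratinocytes sit on the basement membrane, make Krt5 and Krt14, and divide. Cells that leave this layer switch to Krt1 and Krt10, tie themselves together with desmosomes, fill with cornified envelope proteins and finally seal the surface with extracellular lipids. Hair follicles cycle between growth (anagen), regression (catagen) and rest (telogen), and the root sheath keratins, hair shaft keratins and keratin-associated proteins are made in growing follicles.

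A gene value was the mean log2 intensity over the probe sets (short groups of probes, mostly 1 exon) that carry 1 gene symbol, and 15830 genes were measured. The lower quartile of all gene values was 3.38 and the median 4.86, so a value near 3 is at the low end of the scale. Each gene was tested with limma as skin minus the mean of the 4 other group means, and a gene was called where the Benjamini-Hochberg adjusted p was under 0.05 and the groups differed 2-fold or more. Of the 15830 genes, 1422 (8.98%) were called higher in skin and 846 (5.34%) lower. Without the 2-fold limit 3076 (19.4%) were higher and 5823 (36.8%) lower. The median difference of all genes was -0.12, and it was -0.31 when each array was centred on its median, which gave 1206 genes higher and 1401 lower. Skin was higher than each of the 4 tissues separately in 605 genes (3.82%). Without adipose replicate 1 the counts were 1415 higher, 846 lower and 582 higher than each tissue. All 5 skin arrays lay above all 18 others in 721 genes (4.55%) and below them in 202 (1.28%). Correlations between skin arrays over all genes were 0.931 to 0.976, against at least 0.970 within each other tissue, so the skin arrays differed from each other more than those of the other tissues did.

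The highest differences belonged to proteins and enzymes of the outer epidermis. Lor encodes loricrin, a major protein of the cornified envelope. The 5 skin arrays gave Lor values of 11.38, 11.21, 11.96, 11.99 and 11.55, against 2.68 to 3.22 on the 18 arrays of other tissues. The groups were far apart, with a difference of 8.67 ± 0.11 (SE; adjusted p = 9.6e-24, limma). Elovl4, which elongates fatty acids to the very long chains of barrier ceramides, had skin values of 11.60, 11.65, 12.20, 12.20 and 11.79, against 3.25 to 3.68 elsewhere (8.49 ± 0.09, adjusted p = 4.8e-25). The other 8 of the 10 highest differences were Krt77 (8.12), Sprr1a (8.10), Lce1m (7.94), Lce1c (7.87), Dmkn (7.70), Krt10 (7.69), Dsc1 (7.65) and Ear5 (7.58). Sprr1a and the Lce genes encode small envelope precursors, Dmkn a secreted protein of differentiating keratinocytes and Dsc1 a cadherin of upper-layer desmosomes. Ear5 belongs to a family of near-identical ribonuclease genes and was read by 2 probe sets, so its identity is less certain than that of the others. Lce1m and Lce1c were read by 1 probe set each.

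The sequence just before the transcription start of some of these genes is shown, because short motifs near the start were more frequent in some of the lists than in all genes. Promoter windows of 250 bases from RefSeq (GRCm38.p6) were matched by symbol for 12630 of 15769 measured genes. TATAAA was searched on the gene's strand, and TGANTCA, the core to which AP-1 factors bind, GCCNNNGGC, that of AP-2 factors, and CTTTGA, that of LEF and TCF factors, on both strands. TATAAA and TGANTCA are in capitals, and each ends at the base before the annotated start.
Lor, chr3:92083143-92083392, minus strand: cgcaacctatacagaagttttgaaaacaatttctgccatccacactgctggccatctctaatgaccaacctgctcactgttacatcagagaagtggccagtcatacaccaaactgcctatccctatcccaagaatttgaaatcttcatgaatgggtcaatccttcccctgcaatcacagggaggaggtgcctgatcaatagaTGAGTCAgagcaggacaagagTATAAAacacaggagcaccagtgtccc
Sprr1a, chr3:92485882-92486131, minus strand: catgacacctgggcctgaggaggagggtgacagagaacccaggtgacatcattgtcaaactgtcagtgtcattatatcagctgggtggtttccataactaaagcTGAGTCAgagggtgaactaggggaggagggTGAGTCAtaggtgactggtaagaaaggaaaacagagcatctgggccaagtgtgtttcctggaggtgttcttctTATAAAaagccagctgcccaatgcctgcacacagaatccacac
Krt10, chr11:99389365-99389614, minus strand: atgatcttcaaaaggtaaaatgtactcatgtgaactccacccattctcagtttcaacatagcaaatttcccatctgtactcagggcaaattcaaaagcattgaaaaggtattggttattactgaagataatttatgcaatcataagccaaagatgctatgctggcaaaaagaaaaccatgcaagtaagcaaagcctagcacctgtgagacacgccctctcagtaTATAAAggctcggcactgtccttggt
Krt71, chr15:101743098-101743347, minus strand: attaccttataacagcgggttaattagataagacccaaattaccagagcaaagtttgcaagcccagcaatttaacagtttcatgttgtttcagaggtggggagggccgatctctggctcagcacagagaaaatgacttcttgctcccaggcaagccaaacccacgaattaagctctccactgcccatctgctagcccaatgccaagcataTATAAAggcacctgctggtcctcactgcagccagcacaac
Elovl4, chr9:83806306-83806555, minus strand: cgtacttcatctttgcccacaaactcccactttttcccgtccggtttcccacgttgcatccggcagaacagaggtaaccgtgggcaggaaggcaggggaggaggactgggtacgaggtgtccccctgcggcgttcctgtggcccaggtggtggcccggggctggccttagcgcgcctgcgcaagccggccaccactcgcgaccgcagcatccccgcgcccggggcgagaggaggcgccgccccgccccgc

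In Lor the TATAAA begins 27 bases before the start and the AP-1 core 48 bases before it. Sprr1a carries a TATAAA and a pair of AP-1 cores, Krt10 and the root sheath keratin gene Krt71 carry a TATAAA alone, and the GC-rich window of Elovl4 holds neither motif. The windows of Krt77, Lce1c, Dmkn and Ear5, which are not shown, hold no TATAAA. Of 39 windows of the cornified envelope, spinous and granular lists, called higher in skin or not, 17 (43.6%) held TATAAA and 15 (38.5%) TGANTCA. Among all 12630 windows the shares were 7.17% and 6.06%. Hair keratin and keratin-associated protein genes held TATAAA in 18 of 29 windows (62.1%) and TGANTCA in 4 (13.8%). In contrast, of the 17 windows of barrier lipid genes 1 (5.88%) held TATAAA and 0 TGANTCA. Over the 443 windows of genes higher in skin than in each tissue, 9.48% held TATAAA and 12.4% TGANTCA. GCCNNNGGC was in 5.13% of the 39 envelope, spinous and granular windows, 3.45% of the 29 hair windows and 35.3% of the 17 barrier lipid windows, against 17.5% of all. CTTTGA was in 5.13%, 31% and 5.88% of these lists and in 12.7% of all windows. Many of these genes lie in clusters of close copies, so their windows are not independent, and a match of letters is not a binding site.

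**Figure D1:**
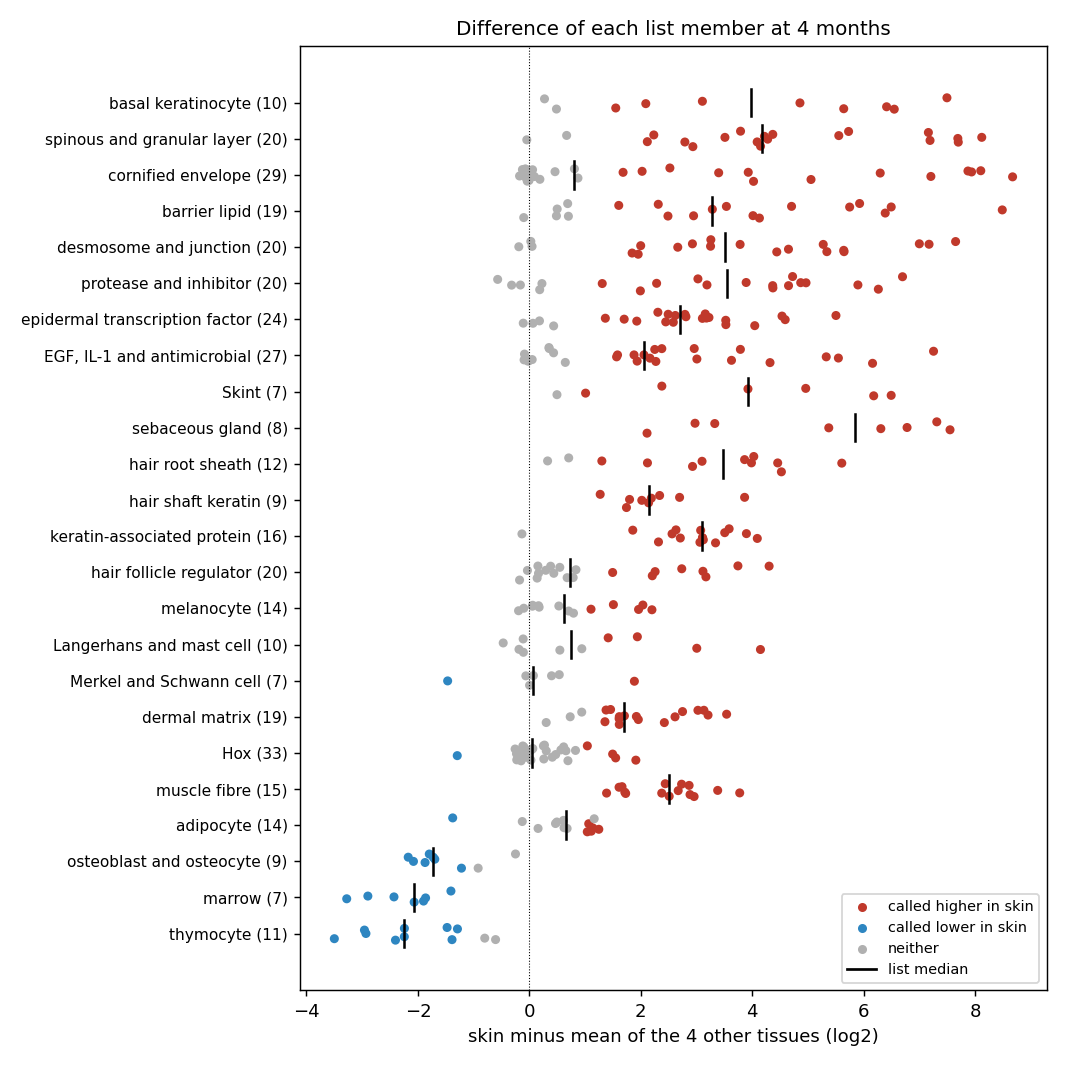
Difference of each gene in 24 lists at 4 months, as skin minus the mean of bone, muscle, thymus and adipose (log2, horizontal axis), with the number of measured genes beside each list name. Red points were called higher in skin, blue lower and grey neither, and the bar is the list median; the epidermal, hair and sebaceous lists reach up to 8.67 and the bone, marrow and thymocyte lists lie below 0.

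Basal keratinocyte genes were higher in skin in 8 of 10 measured cases and higher than each tissue in 7, with a median difference of 3.98. Krt15, a keratin of basal and follicle stem cells, was 10.61 ± 0.20 in skin (SD, n = 5) and 2.91 to 3.37 elsewhere, a difference of 7.49. Krt5 and Krt14, the keratin pair of basal cells, differed by 6.55 and 6.41. Thymus, which has an epithelium of its own, stood above bone, muscle and adipose for both: Krt5 averaged 11.63 in skin, 8.57 in thymus and 3.84 to 4.02 in bone, muscle and adipose, and Krt14 averaged 10.35 in skin and 5.53 in thymus. Itga6 (0.49) and Dst (0.27) were not called at the gene level, although both encode parts of the hemidesmosome that anchors basal cells.

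In the spinous and granular layer list 18 of 20 genes were higher, all 18 higher than each tissue, and the median was 4.18. Krt10 had skin values of 12.08, 12.05, 12.57, 12.22 and 11.86, against 4.14 to 4.89 elsewhere. Its partner Krt1 differed by 7.19 and the protease gene Asprv1 by 7.16. The 2 genes not called were Krt2 (-0.05) and Gsdmc1 (0.67). The cornified envelope list was divided. Of its 29 genes, 13 were higher, from Lce1l (1.68) up to Lor, and these 13 were also higher than each tissue. The other 16 were not called, among them all 9 measured Sprr2 genes (-0.07 to 0.46), Sprr3 (0.03), Lce3b (0.06) and Lce3f (-0.18). Close copies such as the Sprr2 and Lce genes can share probes, so values of single members are uncertain. With only genes of at least 3 probe sets, 6 members of this list were left as higher.

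Lipid enzymes of the barrier followed the same direction, with 14 of 19 genes higher in skin (12 than each tissue) and a median of 3.28. Abca12, the transporter that loads lamellar granules with lipid, differed by 6.49 and ranged from 8.32 to 10.11 in skin, against 2.89 to 3.19 elsewhere. Acer1, an alkaline ceramidase, differed by 6.39, Lipm by 5.93 and the lipoxygenase gene Alox12e by 5.75. Broadly used lipid genes of the list such as Smpd1 (0.70), Ugcg (0.69) and Abhd5 (0.50) were not called.

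Junction genes were higher in 17 of 20 cases (14 than each tissue, median 3.52). Dsc1 was 10.61 ± 0.54 in skin and at most 3.17 elsewhere. Perp and Dsc3, a desmosome-associated membrane protein and a basal desmosomal cadherin, were both higher, with thymus again next to skin: Perp averaged 11.70 in skin and 7.51 in thymus, and Dsc3 averaged 11.36 in skin and 7.13 in thymus. The tight junction genes Cldn1 (5.27) and Cldn4 (3.78) were higher, while Cldn7 (-0.19) and the heart and simple-epithelium plakophilin Pkp2 (0.05) were not called. Proteases that shed cornified cells and their inhibitors were higher in 15 of 20 cases (median 3.54). Klk7, a kallikrein that cleaves corneodesmosomes, differed by 6.26, and the serpins Serpinb5 and Serpinb7 by 6.70 and 5.90. The 3 Serpinb3 genes on the arrays were between -0.57 and -0.16 and were not called.

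**Figure D2:**
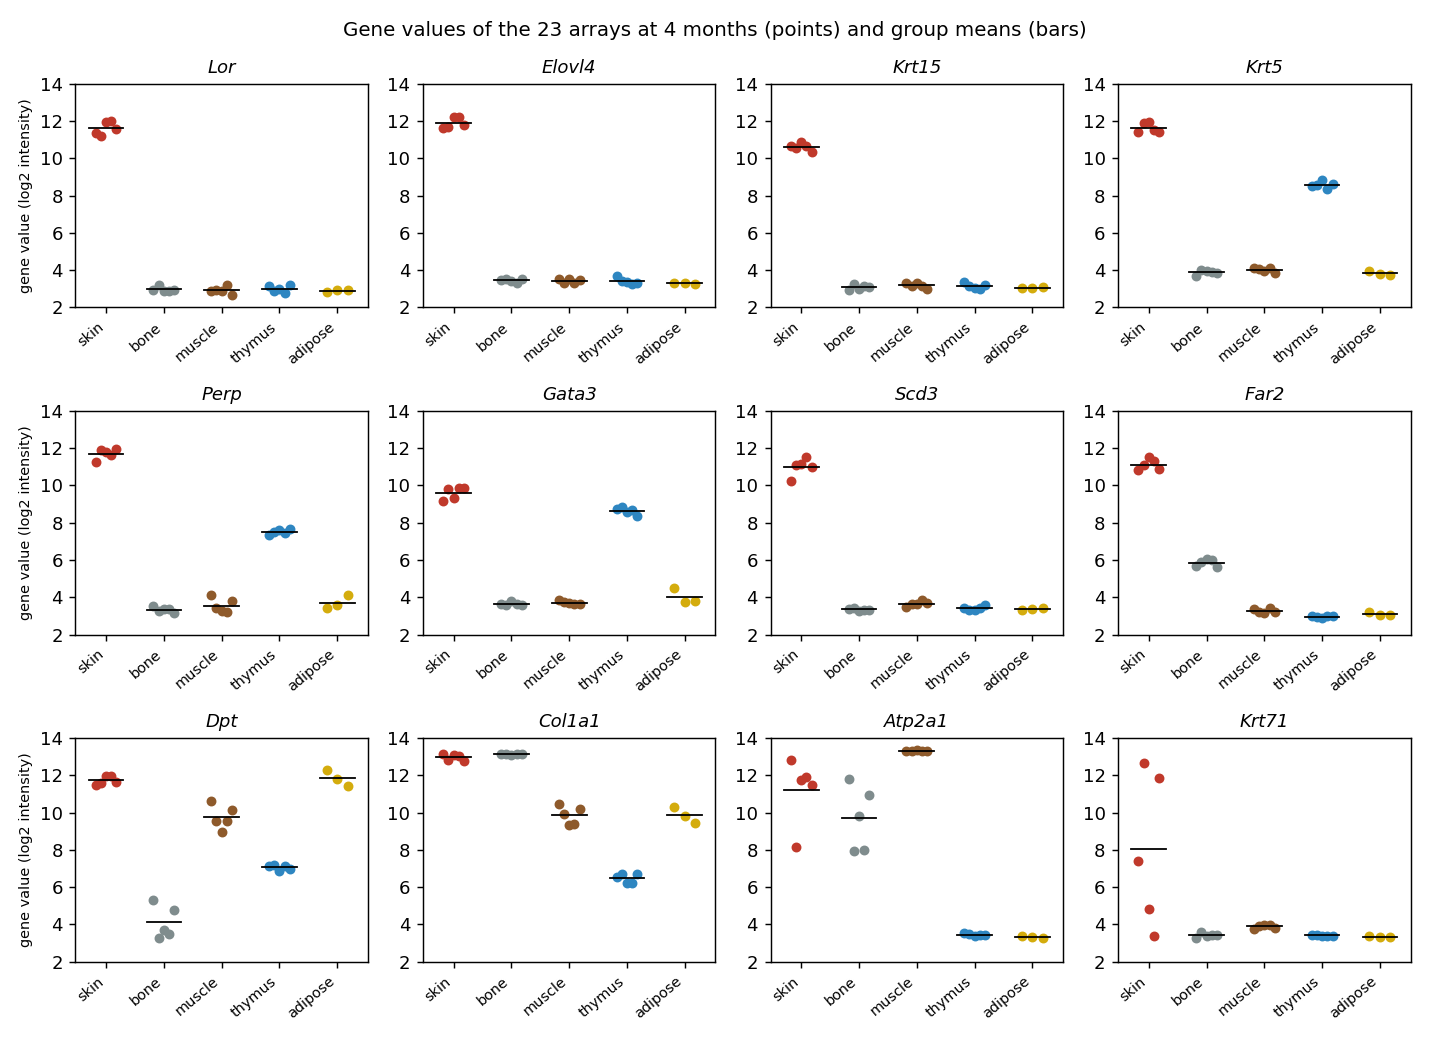
Gene values (log2 intensity, vertical axis) of 12 genes on the 23 arrays at 4 months, grouped as skin, bone, muscle, thymus and adipose, with a bar at each group mean. Lor, Elovl4, Krt15 and Scd3 are high only on the skin arrays, Krt5, Perp and Gata3 are also raised in thymus, Dpt and Col1a1 reach the skin level in adipose or bone, and Krt71 spreads between 3.39 and 12.68 within skin.

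Of the transcription factors known in epidermis, 20 of 24 were higher (17 than each tissue, median 2.71). Grhl1, a regulator of desmosomal cadherin genes, was 8.47 to 10.08 in skin and 3.19 to 4.60 elsewhere (5.50 ± 0.17). Zfp750, which acts late in keratinocyte differentiation, differed by 4.53, Tcfap2b by 4.04 and Trp63, the master factor of stratified epithelia, by 3.11. Gata3 is shared with T cells. It averaged 9.60 in skin and 8.64 in thymus, against 3.66 to 4.02 in the other 3 tissues, so it passed against the mean (4.59) but not as 2-fold above thymus. Ovol2 (0.06), Elf3 (-0.11), Sox15 (0.18) and Pou3f1 (0.44) were not called.

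Growth factors, IL-1 family members and antimicrobial peptides of keratinocytes were higher in 18 of 27 cases (14 than each tissue, median 2.06). Defb6, a beta-defensin, differed by 7.25, S100a14 by 6.16 and Il1f5, the IL-36 receptor antagonist, by 5.55. The EGF receptor gene Egfr (3.01) and its ligands Epgn (3.63), Btc (2.38), Ereg (2.16) and Tgfa (1.93) were all higher, and the ligand Hbegf (0.05) was not called. Inducible members such as Il24 (-0.02), Il1f6 (-0.09) and Defb3 (-0.09) were at the level of the other tissues. The Skint genes, immunoglobulin-like membrane proteins made by mouse keratinocytes and thymic epithelium, were higher in 6 of 7 cases. Skint9 was 8.67 to 10.75 in skin and 2.80 to 4.49 elsewhere, and Skint10 was 7.90 to 9.28 in skin, against 5.94 on average in thymus and at most 3.18 on average in the other tissues.

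All 8 measured sebaceous gland genes were higher in skin, 7 of them than each tissue, and their median of 5.84 was the highest of the 27 lists. Scd3, a stearoyl-CoA desaturase of sebocytes, had skin values of 10.26, 11.10, 11.15, 11.50 and 10.96, against 3.25 to 3.84 elsewhere (7.55 ± 0.12). Far2, a fatty acyl-CoA reductase that makes wax alcohols, differed by 7.31, Krt79 by 6.78 and Fa2h by 6.31. Bone alone had Far2 above the low end of the scale (5.86). The list means of the 5 skin arrays were between 8.78 and 9.63 and none of the others passed 4.33.

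Hair genes varied widely between the skin arrays. Krt71, a keratin of the inner root sheath, had values of 7.40, 12.68, 4.85, 3.39 and 11.86 on skin replicates 1 to 5, against 3.25 to 3.99 in the other tissues. Replicates 2 and 5 were high, replicate 4 overlapped the other tissues, and the mean difference was 4.52 ± 0.93 (adjusted p = 0.00031). Krt33a, a hair shaft keratin, showed the same order with 4.23, 12.22, 3.27, 3.21 and 11.54, against 2.88 to 3.20 (3.86 ± 1.03, adjusted p = 0.0032). The fit takes 1 spread per gene from all 5 tissues, and hair genes spread far more in skin than elsewhere. The SD over the 5 skin arrays was 4.13 for Krt71 and 4.58 for Krt33a. For such genes the SEs are too small, and the adjusted p-values and calls are too confident. In the keratin-associated protein gene Krtap15, replicates 2 and 5 gave 12.58 and 12.56, while replicates 1, 3 and 4 gave 3.71, 2.88 and 2.67, close to the 2.62 to 3.24 of the other tissues. The 6 genes of highest SD among those higher in skin were Krtap15 (SD 5.21), Krtap16-8, Krtap8-2, Krtap16-1, 2310043L02Rik and Krt33a (4.58).

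In the hair lists 10 of 12 root sheath genes, all 9 hair shaft keratins and 15 of 16 keratin-associated protein genes were called higher in skin, and 9, 3 and 0 of them were higher than each tissue. Mean log2 values over the root sheath list were 5.24, 9.11, 4.88, 4.00 and 8.36 on skin replicates 1 to 5, against 3.00 to 3.49 in the other tissues. For the keratin-associated protein genes they were 3.09, 10.23, 2.82, 2.72 and 9.81, against 2.75 to 3.07. Calls in both shaft lists rested on replicates 2 and 5: without replicate 2, 3 of the 9 shaft keratins and 4 of the 16 keratin-associated genes were called, and without replicate 5, 4 and 4. Altogether 82 of the 1422 genes higher in skin had an SD of at least 2 over the 5 skin arrays. Replicates 2 and 5 were the highest pair in 50 of these 82, and 30 were in a hair list and 7 in the muscle fibre list. Where another pair was highest, replicate 2 was the lowest skin array, as in Casq1 with 5.63 there and 9.55 to 11.81 on the others. Many of these genes are muscle genes outside the muscle fibre list, such as Mstn, Tcap, Myot and Myom1. Most genes higher in skin were steadier, with a median SD of 0.51 and 697 below 0.5.

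Some melanocyte genes were also highest on replicates 2 and 5. Tyrp1 and Dct, enzymes of pigment synthesis, were 8.36 and 7.62 on replicate 2 and 7.76 and 7.72 on replicate 5. The other 3 skin arrays gave 3.39 to 3.53 for Tyrp1 and 3.79 to 4.05 for Dct. Of 14 melanocyte genes 5 were called higher, and Sox10 (0.18) and Kit (0.06) were not. In contrast, several follicle regulators were high on every skin array. Lgr5, a marker of follicle stem cells, was 6.90, 7.47, 8.29, 8.40 and 8.02, against 3.22 to 3.99 elsewhere (4.30 ± 0.15). Sostdc1 and Lhx2 differed by 3.74 and 3.17. Foxn1 (0.68), Shh (0.55) and Edar (0.16) were among the 12 of 20 regulators not called, and Hoxc13, a factor of the growing hair shaft, was 6.62 and 7.02 on replicates 2 and 5, against 3.77 to 3.94 on the other skin arrays.

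**Figure D3:**
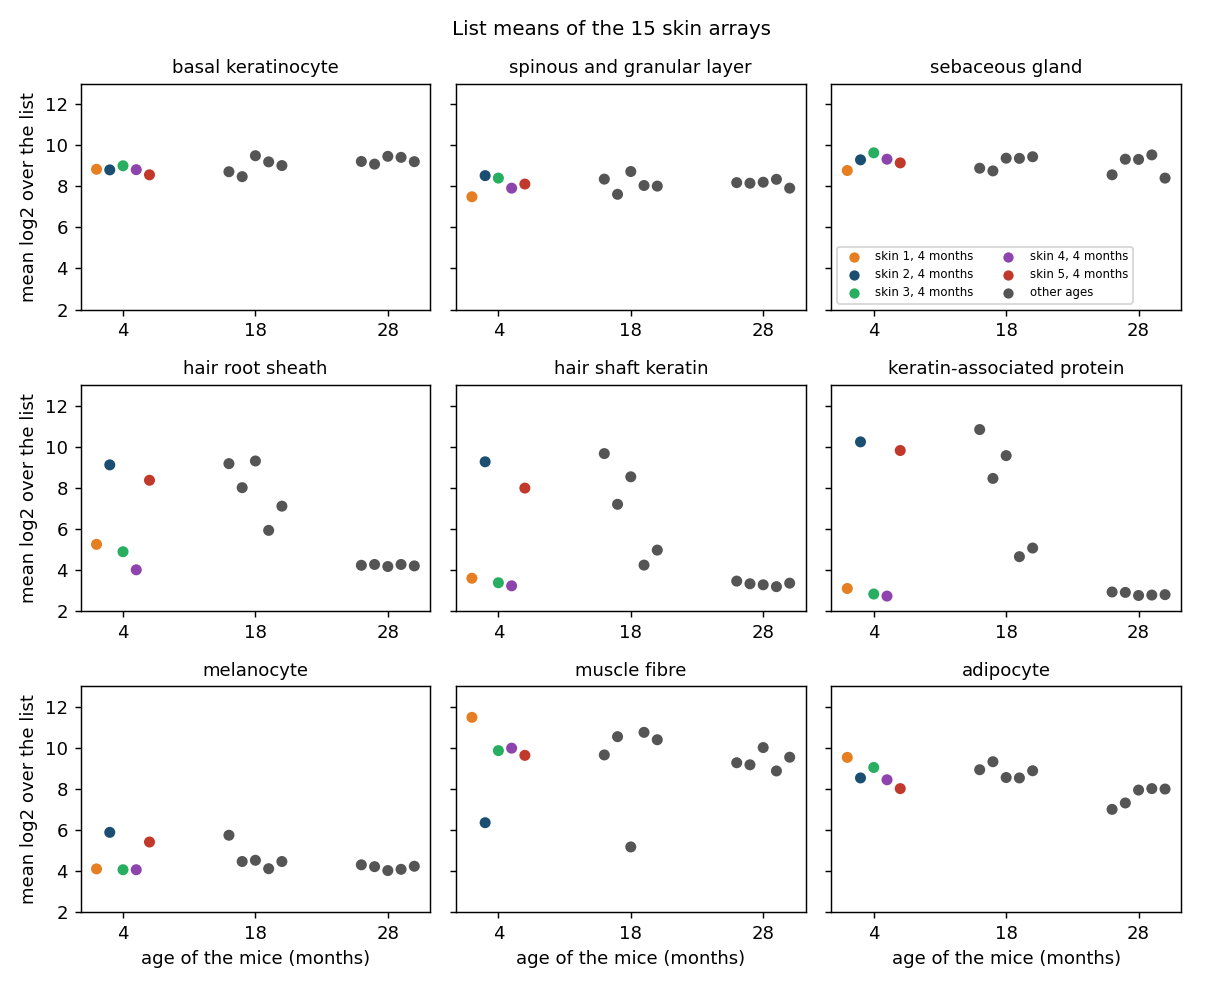
Mean log2 value of 9 gene lists (vertical axis) on each of the 15 skin arrays, by age of the mice in months (horizontal axis), with the 5 arrays of 4 months coloured by replicate. Basal, spinous and sebaceous lists vary little, the 3 hair lists are high on replicates 2 and 5 at 4 months and low on all 5 arrays at 28 months, and the muscle fibre list is lowest on 1 array of 18 months (5.18), followed by replicate 2 of 4 months (6.36).

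Dermal genes were higher in skin in 16 of 19 cases (median 1.71) and higher than each tissue in 3. Col3a1, which encodes the collagen of reticular fibres, was 11.71 to 12.49 in skin and at most 10.90 elsewhere (3.21). Col1a1 was 12.96 in skin and 13.12 in bone on average, and 6.49 to 9.85 in muscle, thymus and adipose. Dpt, a dermal matrix protein, was 11.73 in skin and 11.84 in adipose. Lum (3.03) and Thbs2 (2.75) were the other genes higher than each tissue.

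Among resident immune cells, Cd207, which encodes langerin of Langerhans cells, differed by 1.41, and Epcam, made by these cells and by keratinocytes of the follicle, by 4.15. The mast cell genes Mrgprb2 (3.00) and Cpa3 (1.94) were higher, while Tpsb2 and Tpsab1 (both -0.11) were not called. Of 7 Merkel and Schwann cell genes, Pmp22 was higher (1.88) and Krt18 lower (-1.47), Krt18 with a mean of 4.53 in skin and 10.28 in thymus. Of 33 Hox genes, which record position along the body, 4 were higher in skin and 1 was lower, beside 8.98% and 5.34% of all genes. Hoxb2 (1.55) and Hoxc13 (1.49) were higher than each tissue. Hoxc8 (1.91) and Hoxc6 (1.04) were higher than the mean of the tissues, although Hoxc8 averaged 7.09 in skin and 9.10 in adipose and Hoxc6 averaged 5.25 in skin and 5.44 in adipose. Hoxc10 (-1.29) was lower, with 3.48 in skin and 8.36 in muscle.

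Muscle and fat transcripts were also present on the skin arrays. All 15 muscle fibre genes were called higher in skin than the mean of the other tissues, with a median of 2.51, and 0 of them were higher than each tissue. Atp2a1, the calcium pump of fast fibres, was 12.84, 8.18, 11.73, 11.89 and 11.46 on skin replicates 1 to 5, with means of 13.32 in muscle, 9.69 in bone, 3.46 in thymus and 3.32 in adipose. The list mean was 11.49, 6.36, 9.87, 9.99 and 9.64 on the skin arrays and 12.05 to 12.40 on the muscle arrays. Replicate 1 was the highest and replicate 2 the lowest. Adipocyte genes averaged 8.02 to 9.54 in skin and 11.40 to 11.53 in adipose, and 5 of 14 were called higher, among them Cidec (1.25) and Cfd (1.14). The calls fell to 2 of the 14 without replicate 1 and to 3 without replicate 3. The insulin-responsive glucose transporter gene Slc2a4 was lower in skin (-1.38). Lep, which encodes leptin, was 9.39, 7.99, 8.79, 6.90 and 3.98 on skin replicates 1 to 5 and was not called. Against bone, muscle and thymus alone 3 of the 15 muscle fibre genes were higher at 18 months and 8 at 4 months, and against bone and muscle alone 0 were higher at both 28 and 4 months. The skin list means at 28 months were 8.88 to 10.02, within the range at 4 months. In sections of skin from these animals the paper describes a fat layer in the hypodermis. It reports that this layer was thicker at 18 months and virtually absent at 28 months, when the dermis showed marked fibrosis. Whether the muscle and fat transcripts came from layers of the skin or from attached tissue was not tested. Their part in the other skin differences was not tested either. Among the 1422 genes higher in skin, the mean of at least 1 other tissue stood above skin in 343, adipose in 173, muscle in 120, bone in 48 and thymus in 22. Markers of the remaining tissues were low in skin: the mean of the marrow list was 3.28 to 3.52, against 10.94 to 11.10 in bone, and that of the thymocyte list 3.61 to 3.84, against 10.48 to 10.54 in thymus.

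The 6 lowest differences among genes in which skin lay below all other arrays were those of Alas2 (-3.28), Slc2a3 (-3.01), Ngp (-2.90), Ms4a1 (-2.36), Igh-6 (-2.35) and Asrgl1 (-2.28). Alas2 starts haem synthesis in red cell precursors and Ngp is a granule protein of neutrophil precursors. Ms4a1 and Igh-6 mark B cells. Group means of all 4 were highest in bone, as for Ngp with 2.81 ± 0.06 in skin and 12.44 in bone. The single highest Ms4a1 value was that of adipose replicate 1 (8.90), against 5.88 to 6.99 in bone, and without that array Ms4a1 differed by -1.98. Slc2a3, a glucose transporter of blood and nerve cells, was 3.96 to 5.13 in skin and 6.37 to 10.48 elsewhere. Asrgl1, an asparaginase, differed by more even amounts, with 4.46 in skin and means of 6.32 to 7.32 in the 4 tissues. All 7 marrow genes, 7 of 9 osteoblast and osteocyte genes and 9 of 11 thymocyte genes were called lower.

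Among the 1422 genes higher in skin, adipose had the highest mean of the 4 other tissues in 524, followed by muscle (423), bone (250) and thymus (225). Among the 605 genes higher than each tissue the counts were 139 for adipose, 189 for muscle, 122 for bone and 155 for thymus. Against single tissues, 1292 genes were higher in skin than in adipose (8.16%), 1973 than in bone (12.5%), 2197 than in muscle (13.9%) and 2323 than in thymus (14.7%). Lower in skin were 1389 than in adipose (8.77%), 1614 than in bone (10.2%), 1875 than in muscle (11.8%) and 2229 than in thymus (14.1%). Of the 605 genes, 597 could be placed in the gene order of the reference, which is 3.79% of all 15766 genes placed. Of the 597, 115 (19.3%) stood in 48 runs of at least 2 measured neighbours. Some runs arise by chance, and how many was not estimated. The longest runs were Skint4, Skint3, Skint9, Skint2 and Skint10, then Crct1, Lce1m, Rptn and Tchhl1, then Pglyrp4, Pglyrp3, Lor and A030004J04Rik, and Cd209a, Cd209e, Cd209d and Cd209c. Shorter runs held keratins (Krt14, Krt16 and Krt17; Krt6a, Krt5 and Krt71) and the EGF receptor ligands Epgn, Ereg and Btc. Probes shared by neighbouring copies could add to such runs.

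Skin of older mice gave arrays and animals that the comparison at 4 months did not use. At 18 months 1473 genes (9.31%) were higher in skin than the mean of bone, muscle and thymus, and at 4 months the same 3 tissues gave 1677 (10.6%). The lists shared 1357 genes, which is 92.1% of those at 18 months and 80.9% of those at 4 months. At 28 months, with bone and muscle alone, 1530 genes (9.67%) were higher, and at 4 months the same pair gave 1602 (10.1%), and 1146 were shared (74.9% and 71.5%). Lower in skin were 1339 genes at 18 months (8.46%) and 1977 at 28 months (12.5%). Of 20 spinous and granular genes 18 were higher at each age. Against bone, muscle and thymus, 10 of 12 root sheath genes, 9 of 9 shaft keratins and 15 of 16 keratin-associated genes were higher both at 18 and at 4 months. Against bone and muscle, 3, 0 and 0 were higher at 28 months, and 10, 6 and 9 at 4 months. By the test of the change of the difference, 6 of the 12, 3 of the 9 and 9 of the 16 genes had smaller differences at 28 than at 4 months, and 0 at 18 months. Krt71 had a mean difference 4.32 lower at 28 than at 4 months (adjusted p = 0.00091 for the change of the difference, limma over all 65 arrays). Keratin-associated genes had means of 10.83, 8.45, 9.56, 4.64 and 5.06 on the 5 skin arrays at 18 months and 2.75 to 2.92 at 28 months. Over all genes, skin minus the other tissues had risen at least 2-fold in 186 genes and fallen in 608 at 28 months. At 18 months it had risen in 0 and fallen in 2. These changes are signed, so a gene that lay below the other tissues and dropped further counts as fallen. The median change between 4 and 28 months was 0.11 in the spinous and granular list. It was -2.20 in the adipocyte list, in which the difference fell in 11 of 14 genes. These are changes relative to bone and muscle: the adipocyte list mean in skin itself was 7.01 to 8.02 at 28 months, against 8.02 to 9.54 at 4 months.

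Skin also differed in the use of exons within genes that all 5 tissues express. Exon usage was the log2 value of a probe set minus the mean of its gene on the same array, tested with the same contrast. The test took 68521 probe sets of 5026 genes whose value reached the median of all gene values in each tissue and differed by less than 2-fold between skin and the others. Of these, 476 probe sets (0.695%) in 373 genes (7.42%) were called, and 49 (0.0715%) in 35 genes (0.696%) were also skin-specific, meaning that all 5 skin arrays lay on one side of the 18 others. Of the 49, 42 (0.0613% of all tested) were used more in skin and 7 (0.0102%) less. The counts rose when single skin arrays were left out. Skin-specific were 94 probe sets in 68 genes without replicate 1, 75 in 59 without replicate 2 and 78 in 62 without replicate 3. Without replicate 5 the count was 57 genes. Fewer skin arrays make the separation rule easier to meet, so these counts cannot show whether single replicates drive the result. Probe sets are given by identifier, since no coordinates were used. Without them, exons of an overlapping or antisense gene cannot be told apart from those of the named gene.

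Dst, which encodes dystonin, held 15 of the 49. The gene makes long cytoskeletal linkers in nerve and muscle and a shorter epithelial form that ties keratin filaments to hemidesmosomes. As a gene it differed by 0.27 only, over 114 probe sets. Probe set 4487370 stood 1.93, 3.42, 3.33, 3.26 and 3.80 above the gene mean on the skin arrays, against -6.76 to 0.84 on the others. Its own log2 value averaged 11.50 in skin, 7.83 in thymus, 4.73 in adipose, 4.33 in muscle and 3.44 in bone. Its difference in usage was 6.14 ± 0.28 (adjusted p = 1.4e-12), and probe sets 4820154, 4809857, 4621425 and 4464763 followed with 5.88, 5.36, 4.62 and 4.09. These 5 stood apart from the rest of the gene. Another 9 skin-specific probe sets were used more by 1.36 to 1.79, and probe set 5086279 was used less (-1.07). A further 19 Dst probe sets were called but overlapped other tissues.

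**Figure D4:**
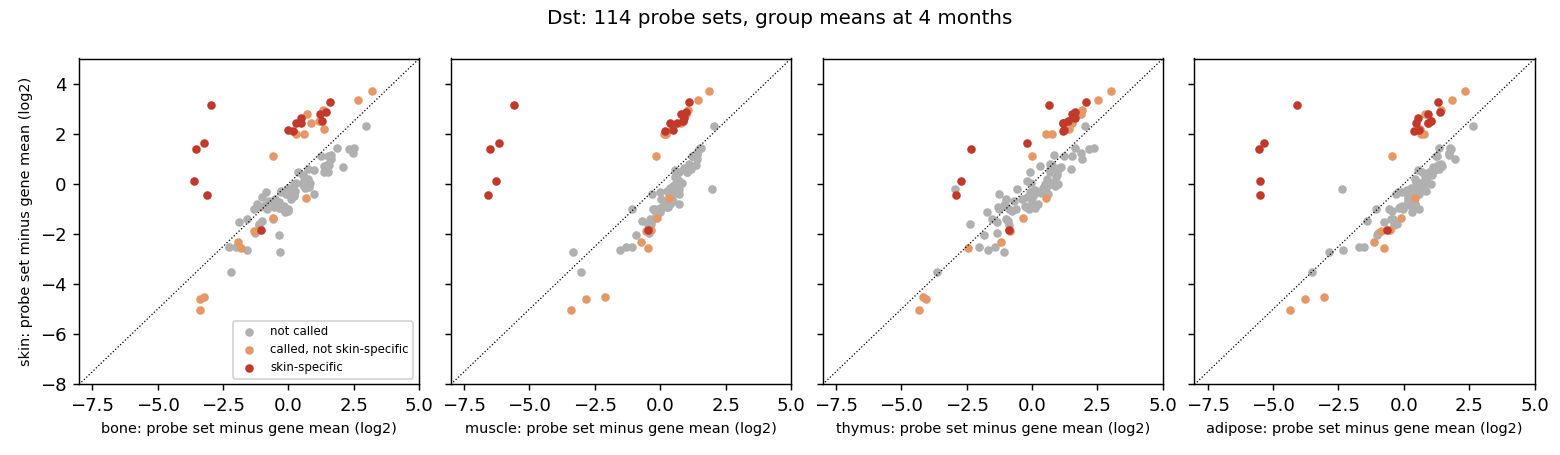
Each point is 1 of the 114 Dst probe sets, as the group mean in skin (vertical axis) against that in bone, muscle, thymus or adipose (horizontal axes), both as probe set minus gene mean (log2); the dotted line marks equal usage. Red points are skin-specific, and 5 of them lie far above the line, by 4.09 to 6.14 on average over the tissues.

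Next came Mtm1, the gene of the lipid phosphatase myotubularin. Probe set 4455465 was 1.44 to 2.20 above its gene mean in skin and 0.78 to 3.43 below it in the other tissues, a difference of 3.85 ± 0.19, while the gene differed by 0.08. In Atp13a2, a lysosomal polyamine transporter gene, probe set 5171118 differed by 3.71 ± 0.35, with 8.09 in skin and 4.11 to 4.81 in the other tissues. The remaining genes with the highest differences were Nfya (2.60), a subunit of the CCAAT-binding factor NF-Y, 9130404D08Rik (2.51), the kinase gene Slk (2.22), Ing1 (2.18), Thoc6 (2.10), Med16 (1.92) and Mlx (1.87). The 7 probe sets used less in skin lay in Lipe (-1.69), Smc4 (-1.31), Mtap1s, Agps, Dst, Lrba and Tmem5. Lipe encodes the hormone-sensitive lipase of fat cells.

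**Figure D5:**
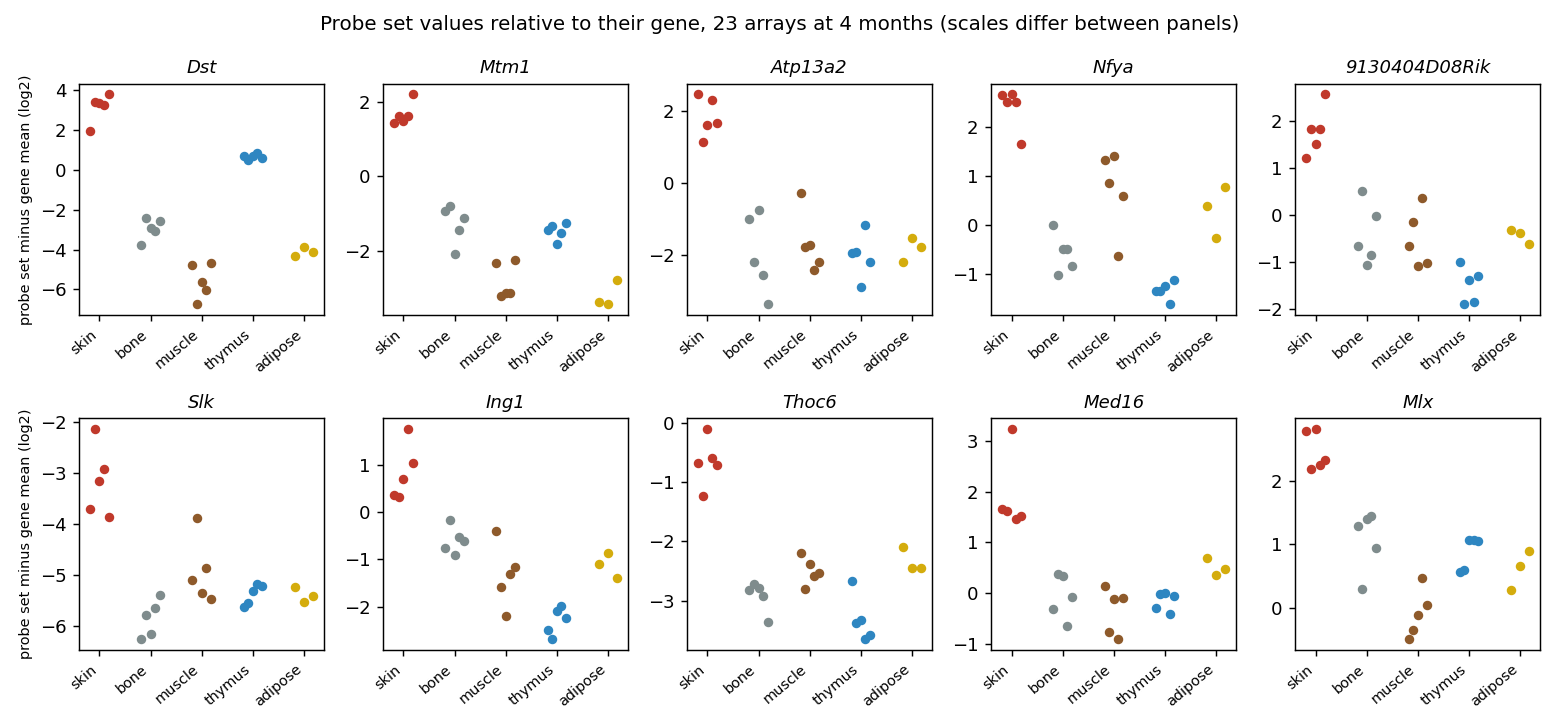
Probe set value minus gene mean (log2, vertical axis, scale differing between panels) of the 10 genes with the largest skin-specific exon difference, on the 23 arrays grouped as skin, bone, muscle, thymus and adipose. In each panel all 5 skin points lie above all others, by the widest margin in Mtm1 and by a narrow one in Slk.

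Of 15 splicing regulators measured, 2 were higher in skin and 1 lower, beside 8.98% and 5.34% of all genes. The 2 higher ones are regulators of epithelial splicing. Rbm35a, now Esrp1, was 8.42 to 9.73 in skin and 2.79 to 4.80 elsewhere (5.75 ± 0.13), and Rbm35b, now Esrp2, differed by 2.83. Both encode RNA-binding proteins of epithelial cells. Rbm38 was lower (-2.39), and the other 12 of 15 splicing regulators measured were not called, among them Ptbp1 (0.13) and Mbnl1 (-0.49). Of 31 genes known to switch exons between epithelial and mesenchymal cells, 16 entered the exon test. A skin-specific probe set was found in 3 of them: Dst, Slk (4324231, 2.22) and Numb (5476023, 1.79). Among all 5026 genes tested, 35 (0.696%) had one. A gene with more probe sets has more chances of a call, and these 3 had 114, 23 and 14. In Slk the separation was narrow, with a lowest skin value of -3.865 and a highest other value of -3.885. Plec1 had 8 called probe sets, Macf1 2 and Arhgef11 1, and 0 of these were skin-specific. Fgfr2 (3.09), Cd44 (2.55), Ctnnd1 (1.32) and 12 others did not enter, because the whole gene differed or was too low in a tissue.

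The exon differences were then examined on the older skin arrays. At 18 months, against bone, muscle and thymus, 33 of the 49 probe sets were called in the same direction, and 18 of these were again separated from all other arrays; of all probe sets tested, 0.954% were called at that age in either direction. At 28 months, against bone and muscle, the numbers were 42 and 37, with 4.97% of all called. Dst probe set 4487370 differed by 4.66 at 18 and 7.48 at 28 months, Mtm1 by 2.64 and 4.24 and Atp13a2 by 3.57 and 4.80. Of the 7 used less in skin, Smc4 differed by -0.94 and -1.25, Mtap1s by -0.68 and -0.84 and Lrba by -0.29 and -0.48 at 18 and 28 months, and Lipe by -1.54 and 0.40. The other tissues differ between these ages, so sizes and counts are given side by side and were not compared. Separation is easier to meet at 28 months, where skin was set against fewer arrays and none of thymus.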

How the data were processed

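Total RNA of 65 tissue samples was hybridized to Affymetrix Mouse Exon 1.0 ST arrays. The deposited values are log2 intensities of 194293 core probe sets. The authors used Partek: backgrounds were corrected by RMA with an allowance for probe GC, arrays were quantile normalized and probes were combined by median polish, annotated to the mm9 build. Neither detection calls nor probe set coordinates were used, so low values have no background test. Gene symbols came from the platform annotation: 179614 probe sets (92.44%) had 1 symbol and were kept, 1331 several and 13348 none. Of 15830 symbols, 13745 were current in GRCm38.p6 and 2046 were synonyms.

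Groups came from the sample labels. The limma 3.58.1 fit (R 4.3.3) held 5 group means over 23 arrays (18 residual degrees of freedom), and p-values were adjusted over all genes or probe sets. It assumed the same spread in every tissue, so errors are too small for genes that vary more in skin. Exon usage was tested on probe sets at or above 3.56 (the lower quartile of the mean of group means) and needed 3 or more of them per gene. Replicates are separate mice, and the number of arrays limits the precision. The members and the 27 gene lists were chosen with earlier results of these data known. Genes were named by rule: the 10 highest and 6 lowest called and separated differences, the 3 highest of each list and members called the opposite way, the 10 largest exon differences, the 6 highest SDs in skin, and exon switch genes with a called probe set; further list members were named after their values were seen. The change of the skin difference between ages was added after seeing the data. The tests were checked on simulated data with the same spread in every tissue, so the check does not cover genes that vary more in skin.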

Additional observations from a re-analysis of the deposited data

Results flagged for a closer look

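In 122 sets of 5 skin values, 7 held 1 array whose gap to its neighbour exceeded Dixon's critical value of 0.71; chance gives about 1 in 20. Skin replicate 5 was high for the follicle gene Sostdc1 (7.86) and for usage of the Mtm1 probe set 4455465 (2.20), and low for the Nfya probe set 5345766 (1.64). Replicate 4 was high for the myelin gene Pmp22 (11.06) and replicate 3 for the Med16 probe set 4992765 (3.24). Replicate 1 was low for the Dst probe set 4487370 (1.93) and for the mean of the EGF, IL-1 and antimicrobial list (5.51), and it also had the highest muscle fibre mean.

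The 2 white adipose arrays left out of the comparison held epididymis transcripts, with list means of 7.12 (replicate 4) and 6.46 (replicate 5), against at most 3.19 on the 23 arrays used.

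Among the named genes, 16 had a skin difference that changed between 4 and 28 months by limma's test of the change (adjusted p below 0.05, at least 2-fold). Hair genes made up 8 of these, all smaller at 28 months: Krt71 (-4.32), Krtap15 (-4.10), Krtap8-2 (-4.00), Krt33a (-3.93), Krtap16-1 (-3.59), 2310043L02Rik (-3.56), Krtap16-8 (-3.51) and Krt35 (-2.22). The test takes 1 spread per gene from all groups, so it is too confident for genes that varied widely between skin arrays at 4 months, as these did. Pigment genes Tyrp1 (-1.89) and Dct (-1.59), adipocyte genes Lep (-3.25), Cidec (-2.88) and Cfd (-2.81), and Ear5 (-1.04) also had smaller differences; Lep was not called at 4 months. These values are relative to bone and muscle. Between skin arrays alone, Lep changed by -3.50 (adjusted p = 0.0014, limma), while Cidec (-1.09, adjusted p = 0.12) and Cfd (-0.72, adjusted p = 0.42) did not pass the test. Mrgprb2 (2.08), a mast cell receptor gene, and Epcam (1.49) had larger ones.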

How the results depend on the processing

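Among the counts of genes, 1 moved by over 1.5 times: centring each array on its median gave 1401 genes lower in skin in place of 846, and 46.3% of calls higher in place of 62.7%. Skin-specific exon counts moved with the filters: 172 probe sets in 117 genes with expression at the lower quartile, 7 in 7 at the upper quartile, 126 in 91 without a limit on the gene difference, 25 in 11 without genes of unadjusted p below 0.05, 58 genes without adipose, and 173 in 142 without the mice of the 6JA series (skin replicates 1 and 2, muscle replicates 2 to 5). Leaving out 1 array at a time gave 1373 to 1470 genes higher, 760 to 936 lower, 582 to 683 higher than each tissue, 49 to 94 skin-specific probe sets and 35 to 68 genes, with exon counts over 1.5 times the main ones without skin replicate 1, 2 or 3, and for genes also 5. At 18 and 28 months these ranges were 1451 to 1513 and 1508 to 1598 genes higher. Separation of skin from the others is easier to meet with fewer arrays. Rises in exon counts on leaving arrays out therefore cannot be read as dependence on those arrays. Lcn8, not called, changed sign with the median over probe sets (0.017) and quantile normalization (0.068), and ranged from -0.038 to 0.0010 with 1 array left out. Lep did so without the 6JA mice (-0.074) and Rnase10 with centred arrays (-0.12), neither called. Krt31, Krtap16-1, Krtap16-8 and 2310043L02Rik lost their call without skin replicate 2 or 5, Crisp1 likewise and with all 5 adipose arrays, and Cfd without skin replicate 1 or 3. Without the 6JA mice 1 of 9 hair shaft keratins, 1 of 16 keratin-associated and 0 of 14 adipocyte genes were called higher. Same-numbered arrays of different tissues come from 1 mouse in part only. The median correlation of their deviations was 0.03 over 42 pairs, of which 35 joined different mice. A replicate block gave 1423 genes higher, 842 lower, 602 higher than each tissue and 51 skin-specific probe sets. With mouse as a random block these counts were 1421, 840, 599 and 49. At 18 and 28 months the replicate block gave 1477 and 1538 genes higher. Array weights per tissue, added after seeing the data, gave 1409 genes higher and 834 lower.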
